A study of Mus musculus with 28 samples.

Results

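The single neurons of the mouse motor cortex were divided by their level of Fos, the transcript of an immediate early gene, and the members were chosen by this value alone. Of the 28 neurons, all of which had a Fos value, 10 lay over 4 on the deposited log scale and are called Fos-high, and 18 lay at 4 or less and are called Fos-low. The Fos values are therefore described without a test, and what follows concerns Junb and the other 1022 genes of the table. The neurons were taken at postnatal day 30 from CD1 mice, from area M1 of the motor cortex. At embryonic day 15 all of the embryos had received the same 3 plasmids in utero, one that labels electroporated cells with GFP, one with the recombinase FLPo behind a heat shock response element, and one with an RFP reporter that FLPo switches on. Their dams were injected on embryonic days 16 and 17 with ethanol (EtOH, 1.0 g/kg in some dams and 4.0 g/kg in others, not stated per neuron) or with phosphate-buffered saline (PBS). The groups were 7 GFP-positive, RFP-negative neurons after EtOH, 15 GFP-positive, RFP-positive neurons after EtOH and 6 GFP-positive, RFP-negative neurons after PBS. RFP reports past activity of a plasmid-borne heat shock element, and the PBS group held RFP-negative neurons only.

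No label names the animal of a neuron, so neurons are not replicates of a condition. Differences are therefore given as differences of mean log values with the SD over neurons, without p-values. The sequencing depth is unknown, and a low value is not read as absence of a transcript. Values were treated as log2, a base that the sources do not state.

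Fos and Junb belong to the AP-1 family, transcription factors with a basic region that contacts DNA and a leucine zipper through which they pair. A Fos protein binds DNA only as a dimer, commonly with a Jun protein such as Junb. In cortical neurons the genes of this family are transcribed within minutes of synaptic activity and calcium entry, through factors such as CREB and SRF at their promoters, and their transcripts decay quickly, so Fos is widely used as a mark of recently active neurons. They also respond to growth factors and to stress.

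The proximal promoters of both genes are shown because Fos and Junb are the pair on which the comparison turns. They are RefSeq sequences on GRCm38.p6, from 250 bases before to 50 bases after the annotated start. Fos (ENSMUSG00000021250) lies on the plus strand, chr12:85473890-85477273, with the promoter window chr12:85473640-85473939. Junb (ENSMUSG00000052837) lies on the minus strand, chr8:84974484-84978718, with the window chr8:84978699-84978998. Capitals mark TGACG, the core of the cyclic AMP response element to which CREB binds, searched on both strands and contained in the full element TGACGTCA, and TATAAA, searched on the strand of the gene.
Fos promoter: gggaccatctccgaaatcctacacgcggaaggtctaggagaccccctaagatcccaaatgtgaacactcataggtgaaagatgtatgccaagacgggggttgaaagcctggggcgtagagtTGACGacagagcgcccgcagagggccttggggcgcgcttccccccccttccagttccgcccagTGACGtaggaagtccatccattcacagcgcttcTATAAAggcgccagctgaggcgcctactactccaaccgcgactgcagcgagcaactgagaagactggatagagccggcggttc
Junb promoter: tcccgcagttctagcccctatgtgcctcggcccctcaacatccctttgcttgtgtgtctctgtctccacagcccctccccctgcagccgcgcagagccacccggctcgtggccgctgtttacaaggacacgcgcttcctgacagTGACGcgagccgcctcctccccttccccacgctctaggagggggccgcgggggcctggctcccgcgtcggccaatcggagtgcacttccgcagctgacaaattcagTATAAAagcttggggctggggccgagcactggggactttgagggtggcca

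The Fos window held TGACG at 129 and 66 bases before the start, and TATAAA at 33 bases before it. In the Junb window TGACG lay 106 bases before the RefSeq start, and TATAAA began at that start, which is 30 bases before the start that GENCODE M21 gives. TGACG occurred in 20.8% of all 32851 promoter windows and in 36.7% of the 1038 windows of genes in the table, so it is common. TATAAA occurred in 8.32% of all windows. Neither window held the full element TGACGTCA, the AP-1 motif TGACTCA (searched on both strands) or a CArG box. These were present in 1.79%, 5.20% and 1.63% of all windows, and in 4.05%, 3.28% and 1.64% of the windows of genes in the table. TGACTCA was in 0 of the 33 windows, from 28 genes, whose mean was higher by 2 or more in Fos-high neurons. It was also in 0 of the 15 windows of genes lower by 2 or more. At a share of 3.28% so few windows can hold 0 matches, and nothing is read from these counts. Absence of these letters says nothing about sites outside the windows.

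Fos-high neurons occurred in every group. They were 6 of 15 RFP-positive EtOH neurons (40%, 95% exact interval 16.3 to 67.7%), 1 of 7 RFP-negative EtOH neurons (14.3%, 0.361 to 57.9%) and 3 of 6 PBS neurons (50%, 11.8 to 88.2%). The intervals cover counting error only and overlap widely, so no order of the groups can be read from them. The Fos-low neurons were 9, 6 and 3 neurons of the same groups.

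Fos was highest in RFP-positive EtOH neuron 7, at 10.98, PBS neuron 3, at 10.26, and RFP-positive EtOH neuron 2, at 10.23. RFP-positive EtOH neurons 3, 4 and 10 followed at 9.46, 8.64 and 7.02. PBS neuron 6, RFP-negative EtOH neuron 3 and PBS neuron 2 lay close together at 6.19, 6.02 and 6.004. The lowest of the Fos-high neurons was RFP-positive EtOH neuron 14, at 5.18. The nearest neuron on the other side was RFP-positive EtOH neuron 12, at 2.80, and the 18 Fos-low neurons ran down to 1.31, with a median of 2.28. Between 2.80 and 5.18 there was no neuron, so a limit of 3 gives the same sides as a limit of 4. The range among Fos-high neurons was wide and was much the same in RFP-positive EtOH and PBS neurons, whereas the Fos-low neurons kept within a narrow band.

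**Figure D1:**
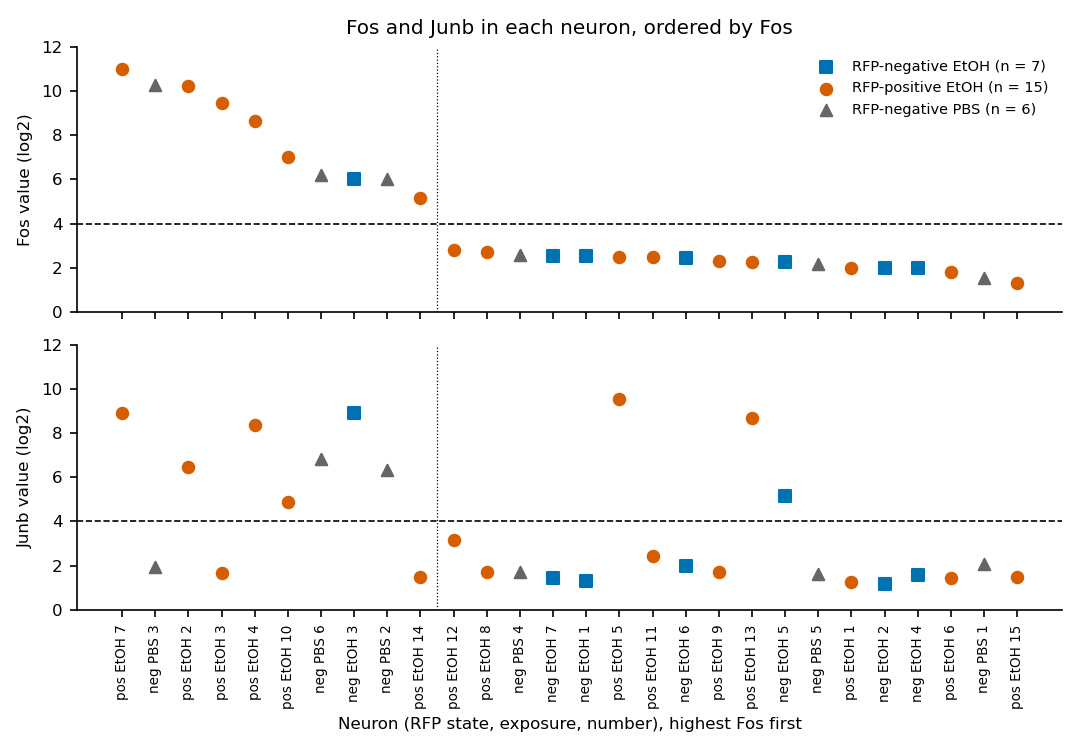
Fos (top) and Junb (bottom) in each of the 28 neurons, in deposited log2 values, ordered from the highest to the lowest Fos. The dashed line marks 4 and the dotted line the border between the 10 Fos-high and 18 Fos-low neurons; Junb lies over 4 in 7 neurons left of the border and 3 right of it.

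Junb, which was not used to form the sides, was over 4 in 7 of 10 Fos-high neurons (70%, exact interval 34.8 to 93.3%) and in 3 of 18 Fos-low neurons (16.7%, 3.58 to 41.4%). Its mean was 5.58 ± 2.96 (SD, n = 10) against 2.74 ± 2.50 (SD, n = 18), a difference of 2.84. Of the 1023 genes other than Fos, 5 had a larger positive difference. A difference of 2 or more in favour of Fos-high neurons, the size counted throughout, was reached by 3.71% of genes, and one of 2 or more in the other direction by 1.47%. Junb was looked at with an earlier result of these data in view, so its place among the genes is a description.

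Among the Fos-high neurons, Junb was highest in RFP-positive EtOH neuron 7, at 8.91, RFP-negative EtOH neuron 3, at 8.90, and RFP-positive EtOH neuron 4, at 8.39. PBS neurons 6 and 2 had 6.83 and 6.35, and RFP-positive EtOH neurons 2 and 10 had 6.48 and 4.87. The remaining 3, PBS neuron 3 and RFP-positive EtOH neurons 3 and 14, lay at 1.92, 1.67 and 1.50, as low as most Fos-low neurons. High Fos was thus found with and without high Junb, and PBS neuron 3 and RFP-positive EtOH neuron 3 had some of the highest Fos values together with low Junb.

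Among the Fos-low neurons, Junb was highest in RFP-positive EtOH neurons 5 and 13, at 9.55 and 8.67, and reached 5.14 in RFP-negative EtOH neuron 5. The other 15 lay between 1.16 and 3.16. The highest Junb value of all 28 neurons was therefore in a Fos-low neuron, and the sides overlapped. Sides that do not overlap were found for 0% of genes other than Fos, in either direction.

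**Figure D2:**
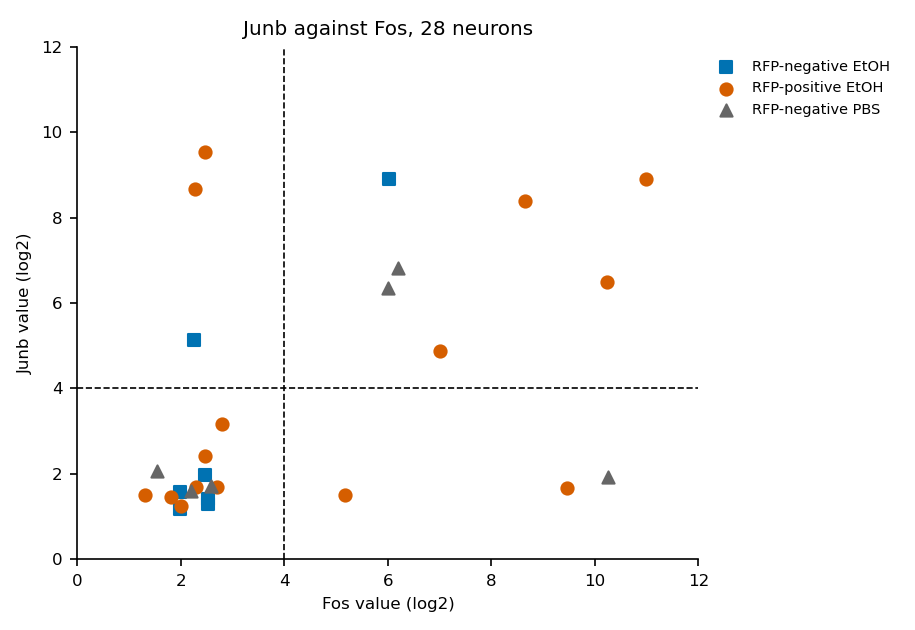
Junb against Fos in deposited log2 values for the 28 neurons, coloured by group, with dashed lines at 4. The upper right holds 7 neurons, the lower right 3, the upper left 3 and the lower left 15.

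Within RFP-positive EtOH neurons alone, where reporter state and exposure are shared, Junb was over 4 in 4 of 6 Fos-high and 2 of 9 Fos-low neurons, with means of 5.30 and 3.49 and a difference of 1.82. Genes higher by 2 or more made up 9.48% in this smaller set, so Junb did not reach that size there. Among PBS neurons it was over 4 in 2 of 3 Fos-high and 0 of 3 Fos-low neurons, with a difference of 3.24, a size of 2 or more that 12.7% of genes reached upward and 22.1% downward in these 6 neurons. The 1 Fos-high RFP-negative EtOH neuron exceeded the mean of the other 6 by 6.80. The direction was the same in all 3 groups, and the mean of their 3 differences was 3.95, on a measure by which 5.28% of genes were higher and 4.3% lower by 2 or more. In the 24 neurons of the large set, those with at least 5 values exactly equal to a value of another neuron, it was 2.39, where 3.71% and 3.52% of genes passed that size. Comparing arithmetic means on the linear scale in place of mean log values gave 1.23. Across the 28 neurons, which share the table's unknown scaling and depth, Junb and Fos had a Pearson correlation of 0.45 and a Spearman correlation of 0.50.

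The exons of Junb overlap those of the peroxiredoxin gene Prdx2 on the opposite strand by 173 bases, and the library kits do not keep strand. Prdx2 differed by 0.47 between the sides, and its correlation with Junb over the 28 neurons was -0.03.

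Other genes induced by activity were sparse in the table. From a list of 41 immediate early genes, 3 were measured, namely Fos, Junb and Gadd45g, and from a list of 21 late response and secreted activity genes 2 were measured, Rgs2 and Nrn1. Over all neurons the 4 genes besides Fos had higher means in Fos-high neurons, as did 512 of 1023 genes. Junb was the only one of them with a difference of 2 or more, which 3.71% of genes reached. Such a list cannot describe the activity programme as a whole.

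Gadd45g, a stress- and activity-inducible gene whose protein takes part in signalling to p38 kinases, was over 4 in 4 of 10 Fos-high and 1 of 18 Fos-low neurons. It was 10.42 in RFP-positive EtOH neuron 7, 6.35 in RFP-negative EtOH neuron 3, 5.61 in RFP-positive EtOH neuron 10 and 5.54 in RFP-positive EtOH neuron 4, and between 1.16 and 2.48 in the other 6. These 4 neurons all had Junb over 4 as well, and the 3 Fos-high neurons with low Junb had Gadd45g between 1.48 and 1.58. The only Fos-low neuron over 4 was RFP-negative EtOH neuron 4, at 6.39, and its Junb was 1.56. The mean difference was 1.72 over all neurons and 2.44 within RFP-positive EtOH neurons, where 3 of 6 against 0 of 9 lay over 4, and it was 0.52 among PBS neurons, all 6 of which lay below 4. Without RFP-positive EtOH neuron 7 the difference over all neurons was 0.99.

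Rgs2, a regulator that shortens G protein signalling, averaged 3.49 ± 2.05 against 2.54 ± 2.04 and was over 4 in 3 of 10 and 1 of 18 neurons. RFP-positive EtOH neurons 7, 10 and 14 carried its high values, at 7.13, 6.60 and 4.84, yet its highest value, 10.39, was in a Fos-low neuron, RFP-positive EtOH neuron 9. Nrn1, the activity-regulated surface protein neuritin, averaged 4.53 ± 3.31 against 3.75 ± 2.30 and was over 4 in 4 of 10 and 7 of 18 neurons. Neither difference, 0.95 for Rgs2 and 0.78 for Nrn1, was as large as the SD on either side. The differences of Junb, 2.84, and Gadd45g, 1.72, were also smaller than their SDs in Fos-high neurons, 2.96 and 3.06. They were larger than the SDs in Fos-low neurons, 2.50 and 1.23. Rgs2 differed by 0.54 without RFP-positive EtOH neuron 7 and by 0.60 without neuron 10, and Nrn1 by 0.18, 0.32 and 0.36 without RFP-positive EtOH neuron 3, RFP-positive EtOH neuron 7 and PBS neuron 2.

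The measured candidates for pairing with Fos or for acting at its promoter showed no common direction. Creb1, which encodes CREB, averaged 2.40 ± 0.89 in Fos-high and 3.53 ± 2.30 in Fos-low neurons, a difference of -1.13, and was over 4 in 1 of 10 and 4 of 18 neurons. Its highest values were 10.80 in PBS neuron 1 and 7.51 in RFP-negative EtOH neuron 1, both Fos-low. Creb3 and Atf4, a membrane-bound factor of the secretory pathway and a factor of the integrated stress response, differed by 0.69 and 0.16. Both signs turned when a single neuron was left out. Creb3 differed by -0.087 without RFP-positive EtOH neuron 4, and Atf4 by -0.61 without neuron 3 and by -0.070 without neuron 14. Exons of Creb3 overlap those of Gba2 and Tln1 on the opposite strand, and Creb3 and Gba2 had a correlation of 0.79 over the 28 neurons, so the values of Creb3 can include reads of Gba2.

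Calcium and cyclic AMP signalling genes were measured for 17 members of a list of 32, of which 6 had higher and 11 lower means in Fos-high neurons, with a median difference of -0.34, which was 0.33 within RFP-positive EtOH neurons. The median over all genes was 0.00. A difference of 2 or more was found for 0 of these members in the higher and 1 in the lower direction. Over all genes these shares were 3.71% and 1.47%, so with 17 members nothing is read from the counts. The 1 lower member was Ppp3cb, a catalytic subunit of the calcium-dependent phosphatase calcineurin. Ppp3cb averaged 2.98 ± 1.80 against 5.35 ± 2.94 and was over 4 in 1 of 10 and 10 of 18 neurons. Ppp3ca, the other catalytic subunit measured, differed by -0.34. Akap9, a scaffold that anchors protein kinase A, and Camk4, a calmodulin-dependent kinase that phosphorylates CREB, differed by 1.65 and 1.63. Akap9 differed by 0.66 within RFP-positive EtOH neurons and by 3.08 among PBS neurons, and Camk4 by 2.17 and -1.63. The MAP kinase and SRF list had 8 measured members, 3 with higher and 5 with lower means and a median of -1.08. This median was -0.54 without RFP-positive EtOH neuron 10, -0.66 without neuron 14, -0.61 in the large set and -0.29 for the mean of within-group differences. Among its members, the 14-3-3 adaptor genes Ywhab and Ywhaq differed by -1.67 and 1.36. In the MAP kinase and SRF list 0 members reached a difference of 2 in either direction, against 3.71% of all genes upward and 1.47% downward.

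Over all genes other than Fos, 512 had higher and 511 lower means in Fos-high neurons. Of them 38 were higher and 15 were lower by 2 or more. With the neurons scaled to a common upper quartile these were 21 and 25, and without RFP-positive EtOH neuron 2 the lower count was 23. The sides had similar numbers of genes over 4 per neuron, with a median of 365.5 (range 274 to 434) in Fos-high and 333.5 (273 to 421) in Fos-low neurons. Neurons were no more alike across genes within a side than between the sides. The median Pearson correlation between neurons, over the 1023 genes, was 0.22 among the 45 pairs of Fos-high neurons, 0.21 among the 153 pairs of Fos-low neurons and 0.22 for the 180 mixed pairs.

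The largest positive difference among genes other than Fos was that of Sphkap (ENSMUSG00000026163, chromosome 1, 83254139 to 83408200, minus strand), which encodes an anchoring protein for protein kinase A. Sphkap was over 4 in 6 of 10 Fos-high and 2 of 18 Fos-low neurons, with means of 6.49 ± 3.43 and 2.46 ± 2.03 and a difference of 4.03. In Fos-high neurons it was 10.22 in PBS neuron 3, 9.51 in PBS neuron 2, 9.30, 9.07, 8.36 and 8.12 in RFP-positive EtOH neurons 4, 14, 3 and 7, and between 1.86 and 3.11 in the other 4. The 2 Fos-low neurons over 4 were RFP-positive EtOH neuron 1, at 9.96, and PBS neuron 5, at 4.85. All 3 Fos-high neurons with low Junb had Sphkap over 4, against 3 of the 7 with high Junb.

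R3hdm1, which encodes a protein with an R3H nucleic acid-binding domain, was over 4 in 7 of 10 and 4 of 18 neurons, with means of 6.88 ± 3.75 and 3.28 ± 2.16 and a difference of 3.59. Ckb, the brain creatine kinase that regenerates ATP, was high on both sides. It was over 4 in 9 of 10 and 12 of 18 neurons, with a median of 10.41 in Fos-high (lowest 2.26, highest 11.22) and 6.26 in Fos-low neurons (1.81 to 10.05). Its means differed by 3.03, so the contrast for Ckb was in level among neurons that mostly had the transcript.

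Ppib, the prolyl isomerase cyclophilin B of the endoplasmic reticulum, differed by 3.07 and was over 4 in 5 of 10 and 1 of 18 neurons. Exons of Ppib overlap those of Snx22 on the opposite strand by 825 bases. Snx22 differed by 2.46, and the correlation of the pair over the 28 neurons was 0.94, so the values of these genes may share reads. Mtpn, the small ankyrin repeat protein myotrophin, differed by 2.94, Psmb6, a catalytic proteasome subunit, by 2.78 and Fam126b by 2.72. Unc80, a subunit of the sodium leak channel complex that sets resting excitability, differed by 2.61. Psmb6 differed by 0.44 within RFP-positive EtOH neurons, whereas Unc80 differed by 5.15 there and by -0.82 among PBS neurons.

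On the other side, Gnaq (ENSMUSG00000024639, chromosome 19, 16132831 to 16387463, plus strand) had the largest lower mean. It encodes the alpha subunit of the G protein that couples receptors to phospholipase C. Gnaq averaged 3.54 ± 2.06 in Fos-high and 6.81 ± 2.69 in Fos-low neurons, a difference of -3.27, and was over 4 in 4 of 10 and 14 of 18 neurons. Its values ran from 1.06 to 7.50, with a median of 2.74, in Fos-high neurons and from 2.95 to 11.05, with a median of 6.53, in Fos-low neurons. The Fos-high neurons over 4 were RFP-positive EtOH neurons 2 and 3, RFP-negative EtOH neuron 3 and PBS neuron 2.

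The other genes with large lower means included Exoc3, a subunit of the exocyst that tethers vesicles to the plasma membrane, which was over 4 in 1 of 10 and 10 of 18 neurons and differed by -2.28. Mat2b, a subunit of the enzyme that makes S-adenosylmethionine, differed by -2.22, the ribosomal protein gene Rpl3 and the superoxide dismutase gene Sod1 by -2.20 each, and the translation factor gene Eif4a2 by -2.18. Fbxw5, Ghitm and Sh3bgrl3 differed by -1.97, -1.91 and -1.90. Mat2b and Ghitm differed by -0.11 and -0.03 within RFP-positive EtOH neurons and by -5.12 and -8.03 among PBS neurons, while the 1 Fos-high RFP-negative EtOH neuron differed from the other 6 by -5.95 and 2.202. Over all EtOH neurons the Ghitm difference was -0.019. With Cst3 at 4 or less, a subset with few Fos-high neurons that was added after the data were seen, Mat2b differed by 0.33.

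**Figure D3:**
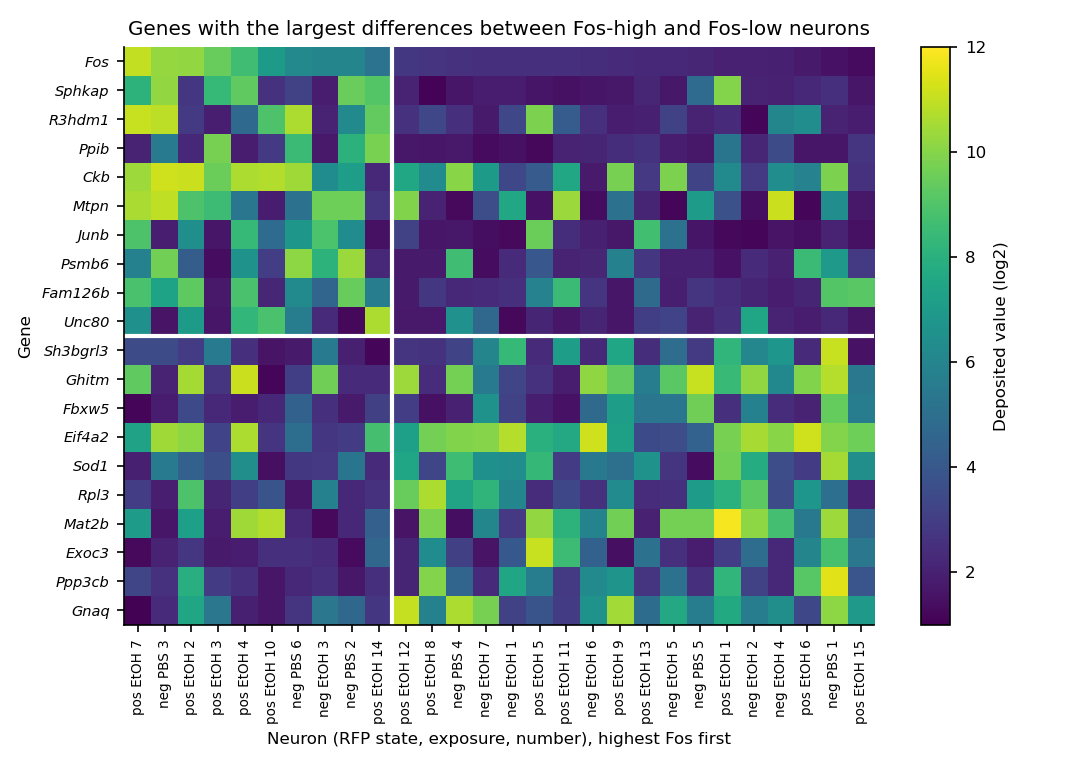
Deposited log2 values (colour) of the genes with the largest differences over all neurons, one gene per line and one neuron per column ordered by Fos; white lines separate Fos-high from Fos-low neurons and higher from lower genes. The ranges of the sides overlap for every gene except Fos, from Ppib, over 4 in 1 of 18 Fos-low neurons, to Ckb, over 4 in 12 of 18.

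The genes with large differences were distributed unevenly over the Fos-high neurons. Of the 9 genes besides Fos that were named for a higher mean, RFP-positive EtOH neurons 7 and 4 and PBS neurons 6 and 2 had 8 over 4, and PBS neuron 3 had 7. RFP-positive EtOH neurons 3 and 10 had 4. Fos-low neurons had between 0 and 4, with a median of 2. Of the 10 genes named for a lower mean, Fos-low neurons had between 4 and 10 over 4, with a median of 6. Fos-high neurons had between 1 and 7, with a median of 2.5. All 10 were over 4 in Fos-low PBS neuron 1. The genes were chosen for this contrast, so these counts describe how the high values were shared out and support nothing further.

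RFP-positive EtOH neurons, with 6 Fos-high and 9 Fos-low neurons, and RFP-negative neurons, with 4 and 9, share no neuron, and their differences were compared across genes. The Pearson correlation of the differences over 1023 genes was 0.01, the Spearman correlation was 0.01, and the sign was the same for 50.3% of genes. Exposure is mixed in the RFP-negative set, where 3 of 4 Fos-high and 3 of 9 Fos-low neurons came from PBS. With PBS neurons alone in its place the Pearson correlation was -0.0045 and the sign was the same for 51.8% of genes. Genes are not independent replicates, and no test was made. Across the table as a whole, the differences in RFP-positive neurons thus showed almost no correlation with those in RFP-negative neurons. Each difference rests on only 6 or 4 Fos-high neurons, and spread between neurons can by itself keep such a correlation low. Whether the contrast carries over to RFP-negative neurons was therefore not tested.

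**Figure D4:**
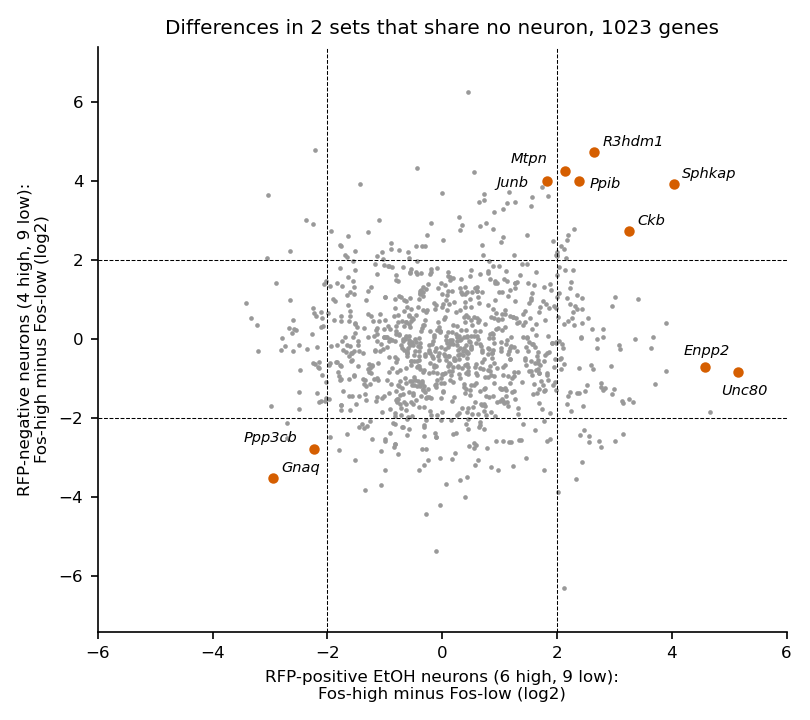
Difference between Fos-high and Fos-low neurons (log2) for 1023 genes in RFP-positive EtOH neurons (horizontal, 6 against 9 neurons) and in RFP-negative neurons (vertical, 4 against 9), 2 sets with no neuron in common; dashed lines mark 2 and -2. The cloud has no slope (Pearson 0.01), and Junb lies at 1.82 and 4.01.

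Single genes had large differences in the same direction in both sets. In RFP-positive neurons 97 genes were higher by 2 or more and in RFP-negative neurons 75 (7.33%), and 12 were in both lists, which is 12.4% of the former and 16% of the latter. They were Sphkap, R3hdm1, Ckb, Ppib, Mtpn, Gdi2, Sez6l2, Caprin1, Cope, Hnrnph2, Kmt2e and BC031181. Sphkap differed by 4.03 and 3.93 in the respective sets, R3hdm1 by 2.65 and 4.74, and Ckb by 3.25 and 2.74. Within the RFP-negative set, PBS neurons differed by 4.60, 7.05 and 1.89 for Sphkap, R3hdm1 and Ckb. The 1 Fos-high RFP-negative EtOH neuron differed from the mean of the other 6 by -0.0053, -0.90 and 1.13 for the same genes. Genes lower by 2 or more numbered 54 (5.28%) and 100 (9.78%), with 4 in both lists (7.41% and 4%), Gnaq at -2.95 and -3.51, Ppp3cb at -2.23 and -2.77, the growth factor-like gene Hdgf at -2.71 and -2.13, and the proteasome ATPase gene Psmc4 at -2.71 and -2.50. Opposite directions at this size were taken by 18 genes, of which 12 were higher in RFP-positive and lower in RFP-negative neurons and 6 the reverse. Sphkap, R3hdm1, Ckb, Ppib, Mtpn, Gnaq and Ppp3cb were chosen for large differences over all 28 neurons, which hold both sets. Their place in both lists was thereby made likely and supports nothing further. The other genes in these lists were named after their values had been seen.

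Looking only at RFP-positive EtOH neurons, Fos was followed in size of difference by Unc80, over 4 in 5 of 6 against 0 of 9 neurons, Slc25a5, an ADP/ATP carrier of the inner mitochondrial membrane, at 4.66, Enpp2, the secreted lysophospholipase D autotaxin, at 4.58, and Sphkap. Among PBS neurons Slc25a5 and Enpp2 differed by -2.17 and -1.21. Among genes over 4 in at least 50% of the Fos-low neurons of this group, the largest lower means were those of Ndn, a growth-restraining protein of postmitotic neurons, at -3.42, the non-muscle myosin Myh10 at -3.34, the glycolytic enzyme Pgam1 at -3.23, the poly(A)-binding protein Pabpc1 at -3.05 and the ornithine decarboxylase antizyme Oaz1 at -3.04. Among PBS neurons Ndn differed by -0.98, and Myh10, Pgam1, Pabpc1 and Oaz1 had the opposite direction, at 1.21, 1.30, 2.68 and 1.09.

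Over the 28 neurons the genes whose order was most like that of Fos were Tmem151a, Ankrd46, Ckb, Gtpbp4 and Ogt, with Spearman correlations of 0.62, 0.61, 0.59, 0.57 and 0.54. Junb ranked 8 of 1023. The middle 95% of genes had correlations between -0.46 and 0.41. Ankrd46 was over 4 in all 6 Fos-high RFP-positive EtOH neurons, between 5.96 and 8.31, and in none of the other 4 Fos-high neurons, where it lay between 1.65 and 2.22. Its highest value, 12.18, was in Fos-low RFP-positive EtOH neuron 9, and with arithmetic means its difference of 2.36 became -1.55. Gtpbp4 differed by only 0.17 in its mean, so its rank order with Fos came largely from values below 4. Tmem151a was over 4 in only 3 of 10 Fos-high and 3 of 18 Fos-low neurons, so most of its values were below 4 too. The genes least like Fos were Gyg, Rab8a, Kdm1a, Gltp and Pdhx, with correlations from -0.60 to -0.55. Each of them was over 4 in 0 of 10 Fos-high and in 3 to 5 of 18 Fos-low neurons. Their choice by low correlation made this likely, and most of their values were below 4. Fos-low PBS neuron 1 held the highest values of Gyg, Rab8a, Kdm1a and Gltp, at 9.93, 9.81, 10.48 and 12.18, and had Pdhx at 2.94.

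Among the remaining lists, that of translation genes was the longest. Of 30 measured, 11 had higher and 19 lower means, with a median of -0.57, and 1 was higher (Rps4x, 2.31, but -0.0946 with Cst3 at 4 or less) and 2 were lower (Rpl3 and Eif4a2) by 2 or more, against 3.71% and 1.47% of all genes. Within RFP-positive EtOH neurons 8 were higher and 22 lower, with a median of -1.16, where the median of all genes was 0.12. Cytoskeletal genes had 14 higher and 6 lower means and a median of 0.33, and Tuba1b and Mapt, which encode an alpha-tubulin and the microtubule protein tau, were higher by 2.07 and 2.03. That median was -0.14 in the large set and -0.34 for the mean of within-group differences. Ribosomal protein and tubulin genes have near-identical copies, so their values can hold reads of other loci.

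Of the 21 ubiquitin and proteasome genes 8 had higher and 13 lower means, with Psmb6 at 2.78 and Psmc4 at -2.62 in opposite directions. For oxidative phosphorylation, the 22 nuclear-encoded genes had a median of -0.13 and the 8 mitochondrially encoded genes one of 0.34, with mt-Nd4 at 1.11 and mt-Nd5 at -1.79. The 11 heat shock chaperones had a median of -0.18, with the co-chaperone Stip1 at -1.76 and Hspa12a at 1.20, and the 7 unfolded protein response genes one of 0.05. The 8 synaptic vesicle genes had a median of 0.04, with the vesicle GTPase Rab3a at -1.84 and Vamp2 at 0.89. Medians of -0.43 and 0.14 were found for the 5 glutamate and GABA receptor genes and the 7 channel genes, with the calcium channel gene Cacna1e at 1.40. The sign of the median turned in 7 of these 8 lists within RFP-positive EtOH neurons, in the large set or for the mean of within-group differences. The mitochondrially encoded genes had medians of 1.19 within RFP-positive EtOH neurons and -1.10 for the mean of within-group differences, and the nuclear-encoded ones 0.66 within RFP-positive EtOH neurons. The median of the ubiquitin and proteasome list kept its sign there but reached 0.080 when a single Fos-high neuron was left out. In these 8 lists together, 1 member was higher and 1 was lower by 2 or more, the 2 proteasome genes. Over all genes these shares were 3.71% and 1.47%.

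**Figure D5:**
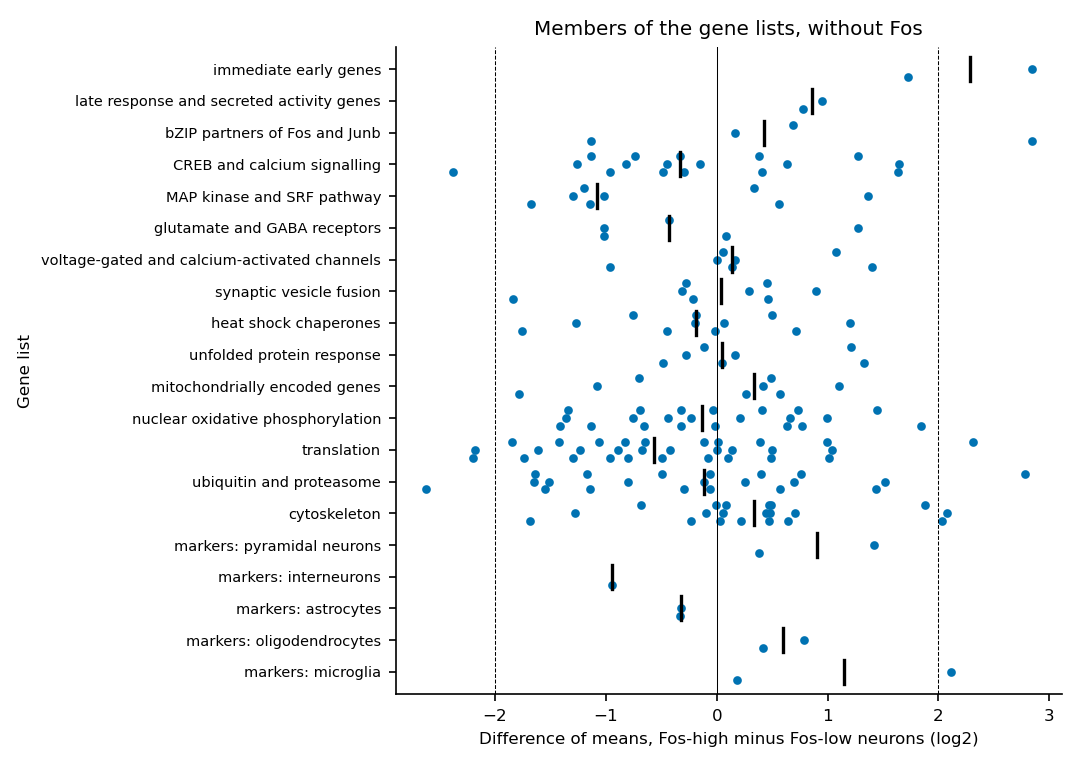
Difference of means between Fos-high and Fos-low neurons (log2) for each measured member of the gene lists and marker lists, Fos left out; bars mark list medians, dashed lines 2 and -2. Most members lie within the dashed lines, and Junb, at 2.84, is the rightmost point of the immediate early list.

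The labelled cell type could be checked on 2 of 8 pyramidal markers. Neurogranin, a postsynaptic protein that holds calmodulin (Nrgn), was over 4 in 10 of 10 Fos-high and 17 of 18 Fos-low neurons. The activity-responsive transcription factor gene Mef2c was over 4 in 10 of 10 and 15 of 18. Nrgn differed by 0.38. Mef2c differed by 1.42 over all neurons, 2.29 within RFP-positive EtOH neurons and 2.01 in the large set. In the latter 2 sets 9.48% and 3.71% of genes were higher by 2 or more. Gad1, the GABA-synthesising enzyme of interneurons and the 1 measured of 8 interneuron markers, was over 4 in 1 of 10 and 5 of 18, and the Fos-high neuron was RFP-positive EtOH neuron 2, at 9.83. With Gad1 at 4 or less in all neurons the Junb difference was 2.42. Kcnn2, the calcium-activated potassium channel gene of the study's title, was over 4 in 3 of 10 and 3 of 18 neurons and differed by 0.14.

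Glial markers were measured for 2 astrocyte, 2 oligodendrocyte and 2 microglial genes. Slc1a2 and Aldoc differed by -0.33 and -0.32, Mbp by 0.41, and Csf1r by 0.18. The cystatin C gene Cst3, listed as a microglial marker, was over 4 in 7 of 10 Fos-high and 6 of 18 Fos-low neurons and differed by 2.11, with values from 1.93 to 10.02 and from 1.52 to 10.52. Csf1r, the defining microglial receptor, was over 4 in 2 of 10 and 2 of 18, and the other 7 microglial markers of the list are not in the table as analysed here. The part of Cst3 in the differences of other genes was not tested. Among neurons with Cst3 at 4 or less the Junb difference was 4.11, and among those with Mbp at 4 or less it was 3.18. With Cst3 at 4 or less, the Fos-high side held only PBS neuron 2 (Junb 6.35), RFP-positive EtOH neuron 10 (4.87) and RFP-positive EtOH neuron 7 (8.91). In that subset 123 genes were higher and 101 lower by 2 or more. Its values, those of Mat2b and Rps4x included, rest on these few Fos-high neurons.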

How the data were processed

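Per the labels' protocols, the contents of single neurons were made into libraries with the SMARTer Ultra Low Input v3 and Nextera XT kits, read for 51 cycles on a HiSeq 2500, demultiplexed with CASAVA 1.8 and filtered with the FASTX-Toolkit. Tools listed in the submitters' processing notes are Bowtie2 and Cufflinks 2.2.1, with build GRCm38. The deposited table holds log2-like values made by the authors for 1024 genes above a cut-off; the base, the scaling and the cut-off are not given in the sources used here. Values ran from 1.00 to 13.2. The table had 0 columns of other samples. Depth is unknown, so precision per value is unknown.

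Neurons were split at a Fos value of 4, and differences of mean log values, SDs, counts over 4 and exact Clopper-Pearson intervals (95%) were computed with Python 3.11.15, pandas 2.3.3 and scipy 1.17.1. The split, the lists and Junb were chosen with earlier results of these data known. The code was tested on simulated data. Named genes were Fos, Junb and measured members of the immediate early, late response and bZIP lists. To these were added the 10 largest differences in each direction over all neurons and the 5 largest within RFP-positive EtOH neurons (over 4 in at least 50% of the higher side), any gene over 4 in all Fos-high and at most 50% of Fos-low neurons (only Fos), the 5 most and least like Fos, and 3 members per other list, not all of which are reported here. Pseudogenes, predicted genes, Y-linked genes and Xist were passed over. Of 21 lists, that of endothelial and blood markers had 0 measured genes. GENCODE M21 held 1020 of the 1024 identifiers. Exons of 26 of 83 named genes overlap another gene, 22 on the opposite strand. The design text counts 5 PBS neurons, but 6 exist and were used. The time course label of PBS neurons mentions EtOH; their titles and exposure labels were followed. Alternatives were another Fos limit, medians, arithmetic means, a common upper quartile, subsets of neurons and leaving out each Fos-high neuron.

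Neurons were also split by exactly equal values shared with others, with no meaning for the split given in the sources: 4 neurons with fewer than 5 such values formed a small set (2 Fos-high, 2 Fos-low) and 24 a large set.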

Additional observations from a re-analysis of the deposited data

Results flagged for a closer look

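Of 90 sets of 6 to 10 values examined for a value far from the others, 11 held one. The sets were mostly the 83 named genes, each in the same 10 Fos-high neurons. The nominal rate of 1 in 20 does not apply, because these sets share neurons and many genes were named for their differences. In the 7 RFP-negative EtOH neurons the Fos value of 6.02 in neuron 3 stood apart from the next, 2.53. That flag only restates the split by Fos, which placed 1 of these 7 neurons on the Fos-high side. The other 10 concern the Fos-high neurons. RFP-positive EtOH neuron 4 stood apart with Creb3 at 10.7 and Scn3a at 8.20, neuron 3 with Atf4 at 10.7, neuron 10 with Myh10 at 6.03, neuron 14 with Exoc3 at 4.61 and Cct4 at 11.99, and neuron 2 with Ppp3cb at 7.90 and Gad1 at 9.83. PBS neuron 6 stood apart with Creb1 at 4.64 and with the lowest Mef2c, 5.91, where the next was 9.14. RFP-positive EtOH neuron 2 was thus the only Fos-high neuron with Gad1 over 4, and its Fos was 10.23.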

How the results depend on the processing

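No paired analysis was possible because the replicate numbers only name neurons and the sides come from no test. A Fos limit of 3 gave the same sides. The Junb difference stayed positive, between 1.23 (arithmetic means) and 4.72 (medians), and between 2.47 and 3.30 when each Fos-high neuron was left out. It was 2.39 in the large set, 3.36 at a limit of 6 and 2.89 in EtOH neurons. Counts of genes past a difference of 2 depended on the setting. Against 38 higher and 15 lower they were 80 and 37 with medians, 133 and 257 with arithmetic means, 21 and 25 with a common upper quartile (where the all-gene median was -0.20), 64 and 51 with Mbp at 4 or less, 70 and 24 in EtOH neurons, and, added after seeing the data, 123 and 101 with Cst3 at 4 or less and 97 and 54 in RFP-positive EtOH neurons. The counts were 43 and 41 with Gad1 at 4 or less, 38 and 36 in the large set and 54 and 44 for the mean of within-group differences. The larger counts in subsets came with fewer neurons. Without RFP-positive EtOH neuron 2 the lower count was 23, and leaving out each Fos-high neuron gave 33 to 48 higher and 13 to 23 lower. Differences of 1 and 3 gave 166 and 4 higher, 169 and 1 lower. The bZIP list median, 0.42, was -0.65 with Cst3 at 4 or less. Cst3 was over 4 in 7 of 10 Fos-high neurons, so all values of this subset rest on few Fos-high neurons. Ankrd46 reversed to -1.55 with arithmetic means, and with Cst3 at 4 or less Mat2b was 0.33 and Rps4x -0.0946; the causes were not tested. Of the 19 genes named for large differences over all neurons besides Fos, 18 kept their sign in every setting. Mat2b was the exception, and their selection made this likely. No setting left out a single Fos-low neuron or took RFP-negative EtOH or PBS neurons alone. Among RFP-negative EtOH neurons R3hdm1, Ppib, Unc80 and Rpl3 were among those with the opposite sign, at -0.90, -0.32, -1.11 and 0.51. Fos-low PBS neuron 1 had an upper quartile of 8.05, against a Fos-low median of 5.71. Its part in the differences was not tested.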
